A study of Rattus norvegicus with 28 samples.

Results

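Insulin release is triggered through ion channels, and the genes described here encode 7 of their subunits: the ATP-sensitive potassium (KATP) channel genes Kcnj11 and Abcc8, the voltage-gated calcium channel genes Cacna1a, Cacna1c, Cacna1d and Cacnb2, and the potassium channel gene Kcnk3. They were picked by name from the 17455 gene symbols of the deposited expression table, of which 10275 were tested, and all 7 passed the filter on low values. RNA-seq was performed on INS-1 cells, a rat insulinoma line used as a model of the pancreatic beta cell. The cells were WT or Med14 S983A, a CRISPR-Cas9 knock-in in which a serine of Med14, a subunit of the Mediator complex, is replaced by alanine. Cells of both genotypes were left untreated (CON) or, once in medium without serum, given 1 of 2 agents that raise cyclic AMP for 1, 8 or 16 h. These were exendin-4 at 10 nM (Ex-4), a peptide that activates the receptor for GLP-1, and forskolin at 10 µM (FSK), a direct activator of adenylyl cyclase. This gave 14 groups of 2 libraries. The knock-in cells were grown from single sorted cells, and the study worked with 2 knock-in lines made independently. The sources used here do not tie a library to a line, and the part of the line in the genotype differences was not tested. The substitution changes 1 residue, so transcript levels do not check the genotype labels. The study's methods refer to the duplicates as biological replicates, the labels only number them, and neither says whether they came from separate cultures, so p-values measure the spread between these libraries.

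In the beta cell, glucose metabolism raises ATP, which closes the KATP channel, and the cell depolarizes. Voltage-gated calcium channels then open, and the calcium that enters drives fusion of insulin granules with the plasma membrane. Potassium leak channels of the tandem-pore (K2P) family contribute, beside the KATP channel, to the resting potential against which this happens. Cyclic AMP, the messenger that both agents raise, is known to potentiate secretion through protein kinase A and Epac2, and it also acts on transcription through CREB. CREB binds the cAMP response element (CRE), whose full form reads TGACGTCA and whose shorter core reads TGACG.

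The RefSeq table of the GRCr8 assembly held sequences upstream of the start of 4 of the 7 genes, with 2 entries for Cacnb2. No full CRE lay in the 250 bases before any of these 5 starts, on either strand, where 1.59% of all 33469 upstream sequences of that length held one. The core TGACG, searched on both strands and present on both strands of each full CRE, was found once upstream of Cacna1c and once at the downstream entry of Cacnb2 (chr17:82596542-82596791, plus strand), against 18.2% of all upstream sequences. The windows before the 3 calcium channel pore genes are shown because these genes took different courses under the same treatments. Capitals mark the core motif, and each sequence runs 5′ to 3′ on the minus strand of GRCr8, ending at the base before the start for Cacna1a (chr19:40650469-40650718), Cacna1c (chr4:154051749-154051998) and Cacna1d (chr16:5527550-5527799).
Cacna1a: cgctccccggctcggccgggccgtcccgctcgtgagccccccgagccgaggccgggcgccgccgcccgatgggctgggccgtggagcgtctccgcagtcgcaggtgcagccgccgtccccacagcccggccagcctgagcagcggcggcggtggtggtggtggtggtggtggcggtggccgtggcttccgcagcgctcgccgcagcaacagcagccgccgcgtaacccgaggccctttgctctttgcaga
Cacna1c: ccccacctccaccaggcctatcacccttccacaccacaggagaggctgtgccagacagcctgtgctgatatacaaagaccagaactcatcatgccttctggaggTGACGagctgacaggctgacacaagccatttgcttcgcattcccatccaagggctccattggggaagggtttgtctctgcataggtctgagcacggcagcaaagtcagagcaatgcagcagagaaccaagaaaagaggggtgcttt
Cacna1d: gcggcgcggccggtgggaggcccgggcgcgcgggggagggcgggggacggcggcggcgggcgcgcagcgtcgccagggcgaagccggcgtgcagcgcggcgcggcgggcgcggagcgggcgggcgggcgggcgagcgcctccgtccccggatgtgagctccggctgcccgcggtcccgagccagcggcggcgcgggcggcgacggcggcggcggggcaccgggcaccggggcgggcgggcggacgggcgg
The core motif upstream of Cacna1c began 146 bases before the start. GC made up 76.8% of the Cacna1a window, 54.4% of the Cacna1c window and 88.8% of the Cacna1d window, beside a median of 51.2% over all 33469. A match or its absence in these letters describes the window and says nothing of binding.

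The depth was 42551133 to 57231981 fragments per library, except Med14 S983A 8 h FSK replicate 2 with 92635979, and each of the 7 genes was covered in every library by 336 fragments (the lowest, for Kcnk3) to 36002 (the highest, for Abcc8). Expression is given as TPM (the share of a transcript in its library, corrected for length), a level per length that can be compared between genes. Beta cell identity was visible in the libraries, where 10 of 13 listed beta cell markers averaged 1 TPM or more, while Ucn3 stayed at or below 0.556 TPM and 2 markers were not among the rows used here. Markers of delta, PP, epsilon, exocrine, fibroblast and endothelial cells summed to at most 0.699 TPM for any of those lists, and the immune list to at most 1.75 TPM. The alpha cell list was carried by Gcg, the glucagon gene, whose group means went from 167.0 TPM in WT CON to 838.1 at 8 h of Ex-4 and 1285 at 8 h of FSK, and from 6.32 TPM in Med14 S983A CON to 40.2 and 106.0, while the alpha markers Irx2 and Ttr stayed at or below 0.276 TPM. The sum over the 11 beta markers in the table came mostly from Ins1, Ins2 and Iapp. In WT it was 45948 TPM in CON and 73559 at 16 h of Ex-4. With FSK in WT it was 81235 at 8 h and 75277 at 16 h. In Med14 S983A it was 80500 TPM in CON, 82451 at 8 h of FSK and 51764 at 16 h of FSK. These sums moved with the groups compared below, upward under FSK in WT and downward at 16 h of FSK in Med14 S983A, and their part in the TPM of the channel genes was not tested. In bulk RNA, a smaller number of cells that express a gene and less transcript per cell cannot be told apart.

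**Figure D1:**
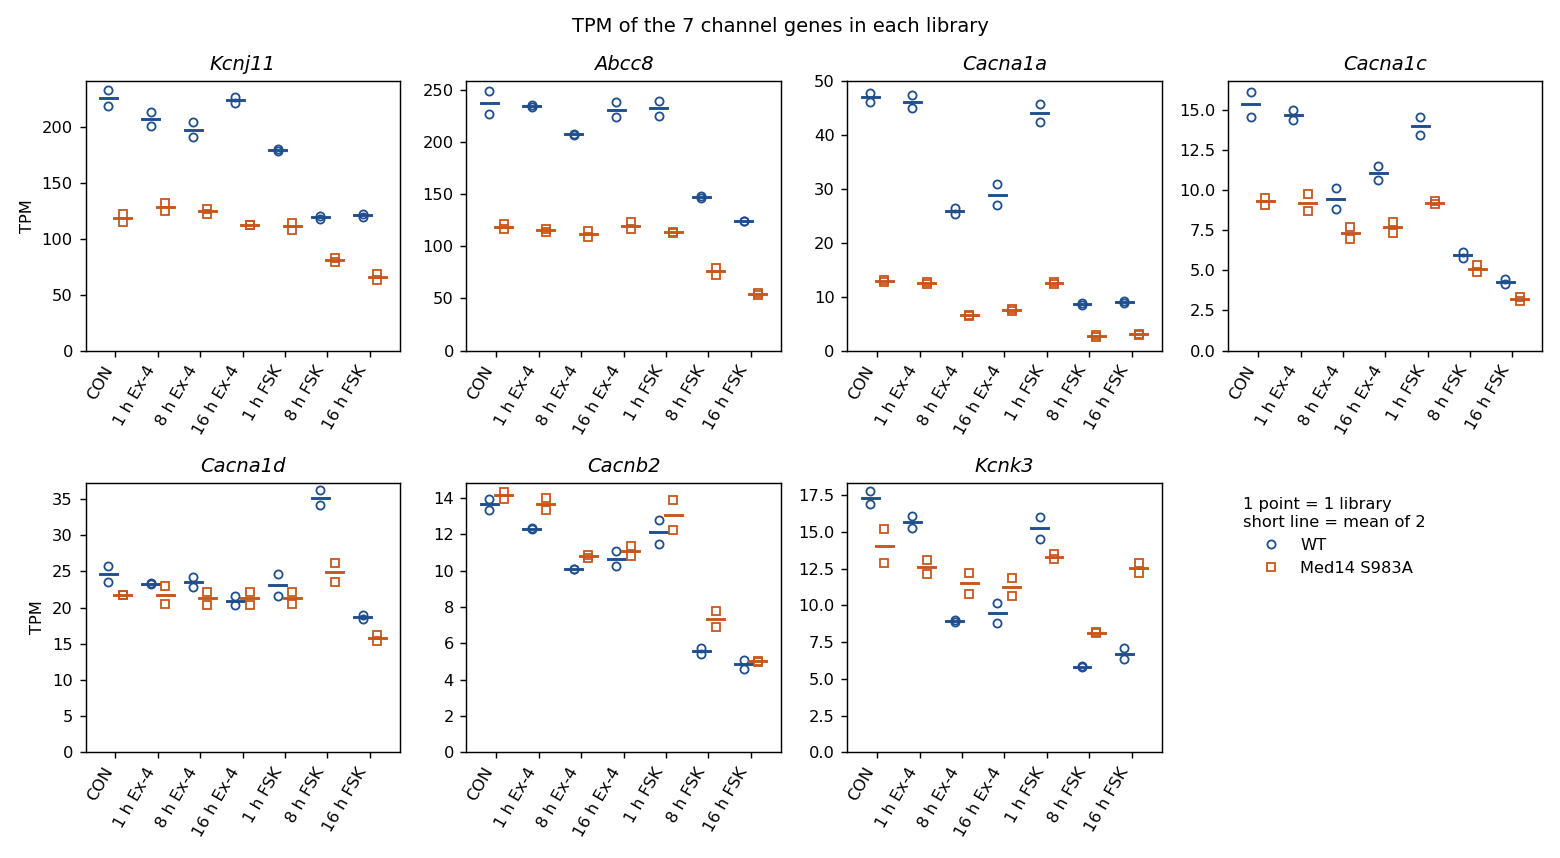
TPM of the 7 channel genes (vertical axes, from 0) in the 14 groups, with WT as blue circles and Med14 S983A as orange squares. Each point is a library and each short line the mean of 2. Kcnj11, Abcc8, Cacna1a and Cacna1c sit lower in Med14 S983A than in WT under the same treatment throughout. Cacna1d peaks in WT at 8 h of FSK, and Kcnk3 shows the lowest levels in WT after 8 and 16 h of FSK.

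Kcnj11 and Abcc8 were the most abundant of the 7. Kcnj11 (NM_031358, rn6 chromosome 1, 102103094 to 102106127) encodes the pore Kir6.2 and Abcc8 (NM_013039, chromosome 1, 102110708 to 102191287) the sulfonylurea receptor SUR1, which assemble into the channel together. The genes lie 4580 bases apart on the minus strand. In WT CON the libraries had 233 and 219 TPM of Kcnj11 and 249 and 227 TPM of Abcc8. The transcripts stood close to parity, with a ratio of Kcnj11 to Abcc8 between 0.753 and 1.29 over the 28 libraries. Over the 14 groups the highest mean exceeded the lowest 3.42-fold for Kcnj11 and 4.37-fold for Abcc8, from WT CON down to Med14 S983A at 16 h of FSK in both cases.

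The calcium channel genes were expressed at lower levels and in a changing order. Cacna1a (NM_012918, chromosome 19, 25526751 to 25749550, plus strand) encodes the pore of P/Q-type channels and had 47.8 and 46.2 TPM in WT CON. Cacna1d (NM_017298, chromosome 16, 6112150 to 6404957, minus strand), the L-type pore Cav1.3, had 25.7 and 23.5 TPM there. Cacna1c (NM_012517, chromosome 4, 150641066 to 151269159, minus strand), the L-type pore Cav1.2, had 16.1 and 14.5 TPM. Cacnb2 (NM_053851, chromosome 17, 81798414 to 82019219, plus strand) encodes a beta subunit that carries the pore to the membrane and tunes its gating, at 13.4 and 13.9 TPM. Kcnk3 (NM_033376, chromosome 6, 27154278 to 27190209, minus strand) encodes TASK-1, an acid-sensitive K2P channel, and had 17.8 and 16.9 TPM. Cacna1a had the widest range of the 7, 17.3-fold between the means of WT CON and Med14 S983A at 8 h of FSK, and Cacna1d the narrowest at 2.23-fold.

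The first comparison asked how the untreated genotypes differ. There, 4 channel genes were lower in Med14 S983A CON than in WT CON, namely Kcnj11, Abcc8, Cacna1a and Cacna1c, and Cacnb2, Cacna1d and Kcnk3 did not pass. A gene was called at a Benjamini-Hochberg adjusted p under 0.05 (limma on log2(TPM + 1), two-sided, over 10275 genes) with a change over 1.5-fold. Of all genes tested, 11.1% were called lower in this comparison, beside the 4 of 7 channel genes. The median log2 difference was −0.66 over the 7 genes and −0.07 over all genes.

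Kcnj11 had 115.0 and 122.2 TPM in Med14 S983A CON, 1.91-fold under WT (log2 −0.93, SE 0.05, adjusted p 4.15e-15 by limma). Abcc8 had 116.6 and 121.5 TPM, 2.00-fold under WT (log2 −0.99, SE 0.05, limma adjusted p 8.41e-16). For both KATP genes, each Med14 S983A CON library thus lay below each WT CON library. Cacna1a showed the widest gap, with 12.7 and 13.1 TPM against 47.8 and 46.2 TPM, or 3.64-fold (log2 −1.79, SE 0.07, limma adjusted p 1.01e-17). Cacna1c had 9.50 and 9.08 TPM, 1.65-fold under WT (log2 −0.66, SE 0.08, limma adjusted p 5.6e-08), and this call was lost after median-centring of the libraries (−0.58), with scaling on the ERCC spike-ins (−0.54) and in DESeq2 with ERCC size factors (−0.52).

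Cacna1d, at 21.7 and 21.8 TPM, had a log2 difference of −0.17 (95% interval −0.32 to −0.02), which went to 0.03 in DESeq2 with ERCC size factors. Kcnk3 had 12.9 and 15.2 TPM and a log2 difference of −0.29 (−0.46 to −0.12), under the 1.5-fold limit. Cacnb2 had 14.4 and 13.9 TPM, overlapping the WT libraries, with a log2 difference of 0.05 (−0.10 to 0.19). Tested genes flanking the channel genes on the same chromosome, up to 25 on either side in rn6, had median log2 differences from −0.15 (around Cacna1c) to 0.07 (around Cacna1d). The neighbours of Cacna1a had a median of −0.10, those of Kcnj11 −0.07 and those of Abcc8 −0.08.

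**Figure D2:**
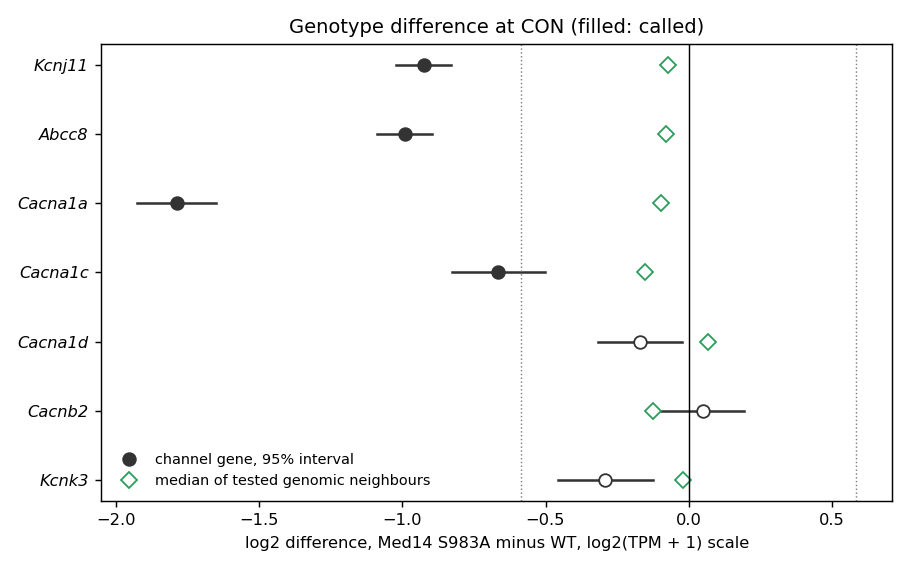
Log2 difference between Med14 S983A CON and WT CON (horizontal axis) for each channel gene, with its 95% interval, filled where called, and the median of its tested genomic neighbours (green diamonds). Dotted lines mark 1.5-fold. Kcnj11, Abcc8, Cacna1a and Cacna1c lie left of the dotted line, from −0.66 to −1.79, while the neighbour medians lie between −0.15 and 0.07.

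The response to Ex-4 was examined next, each treated group against the CON libraries of its genotype, which all comparisons within a genotype share. At 1 h no channel gene was called in WT, where 2.87% of all genes were called in either direction, nor in Med14 S983A, where 3.04% were. Limma, edgeR and DESeq2 each gave 0 of 7. Only Kcnj11 had an unadjusted p under 0.05 in either genotype, with a log2 difference of −0.12 in WT and 0.12 in Med14 S983A. Of all 10275 genes, 2592 in WT and 2692 in Med14 S983A had even the adjusted p under 0.05.

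After 8 h of Ex-4, Cacna1a, Cacna1c and Kcnk3 had fallen in WT, 3 of 7 where 5.99% of all genes were called lower. Cacna1a had 26.4 and 25.3 TPM at 8 h, 1.82-fold under CON (log2 −0.84, SE 0.07, limma adjusted p 1.19e-10). Kcnk3 had 8.99 and 8.86 TPM, 1.94-fold under CON (log2 −0.88, SE 0.08, limma adjusted p 1.28e-09). Cacna1c had 10.1 and 8.80 TPM, 1.62-fold under CON (log2 −0.64, SE 0.08, limma adjusted p 1.87e-07). None of these libraries overlapped with CON. The Cacna1c call was lost with median-centring (−0.52), ERCC scaling (−0.53), DESeq2 with ERCC size factors (−0.55), without WT CON replicate 1 (−0.57) and without WT 8 h Ex-4 replicate 2 (−0.55). The other members had smaller values, with Cacnb2 at 10.1 TPM in both libraries (log2 −0.40), Kcnj11 and Abcc8 at a log2 difference of −0.19 each, and Cacna1d at −0.06.

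At 16 h of Ex-4 in WT, Cacna1a and Kcnk3 were called lower, 2 of 7, beside 8.28% of all genes. Cacna1a had 26.99 and 30.9 TPM (log2 −0.68, SE 0.07, limma adjusted p 3.21e-09). Kcnk3 had 8.78 and 10.2 TPM (log2 −0.81, SE 0.08, limma adjusted p 4.37e-09). Both genes kept all libraries under CON. The median over all genes was itself −0.16 in TPM at this time, and the calls depended on the scaling. The Cacna1a call was lost with median-centring (−0.50), ERCC scaling (−0.41), edgeR (−0.55), DESeq2 (−0.52) and DESeq2 with ERCC size factors (−0.37), and the Kcnk3 call with ERCC scaling (−0.55) and DESeq2 with ERCC size factors (−0.54). Kcnj11, at 222 and 227 TPM, and Abcc8, at 224 and 239 TPM, overlapped CON, with log2 differences of −0.01 and −0.04 in TPM that turned to 0.18 and 0.15 after median-centring.

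In Med14 S983A, Cacna1a was the 1 channel gene called after Ex-4, at 8 h, where 3.09% of all genes were called lower, and at 16 h, where 7.15% were. It went from 12.7 and 13.1 TPM in CON to 6.65 and 6.43 TPM at 8 h (log2 −0.88, SE 0.07, limma adjusted p 6.25e-11) and 7.72 and 7.34 TPM at 16 h (log2 −0.71, SE 0.07, limma adjusted p 1.88e-09). Cacna1a thus fell in both genotypes from very different starting levels. Kcnk3 had 12.2 and 10.8 TPM at 8 h and 10.6 and 11.8 TPM at 16 h in these cells, with log2 differences of −0.26 and −0.29. Cacna1c had log2 differences of −0.31 and −0.25, and Cacnb2 −0.36 and −0.32.

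FSK was examined in the same way. At 1 h no channel gene was called, with 7.47% of all genes called in either direction in WT and 10.4% in Med14 S983A. Limma, edgeR and DESeq2 each gave 0 of 7. At an unadjusted p under 0.05 there were 3 in WT (Kcnj11, Cacnb2 and Kcnk3) and 0 in Med14 S983A. Of all 10275 genes, 4538 in WT and 5388 in Med14 S983A had even the adjusted p under 0.05. Kcnj11 was the 1 channel gene past the adjusted p in WT. It had 180.3 and 178.4 TPM, below both CON libraries (log2 −0.33, SE 0.05, limma adjusted p 2.04e-06), short of 1.5-fold.

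By 8 h of FSK, 6 of 7 channel genes had fallen in WT. The background was wide, since 34.8% of all genes were called lower and the median of all genes was −0.34. Cacna1a had 8.75 and 8.41 TPM, 5.48-fold under CON (log2 −2.32, SE 0.07, limma adjusted p 1.8e-20). Kcnk3 had 5.82 and 5.84 TPM (log2 −1.42, SE 0.08, limma adjusted p 1.6e-14). Cacna1c had 6.15 and 5.76 TPM (log2 −1.23, SE 0.08, limma adjusted p 2.02e-13). Cacnb2 had 5.76 and 5.40 TPM (log2 −1.16, SE 0.07, limma adjusted p 8.43e-14). These 4 genes lay under CON in every library and stayed called under each scaling and in edgeR and DESeq2. The KATP genes were at 118.2 and 120.4 TPM for Kcnj11 (log2 −0.92) and 146.6 and 148.3 TPM for Abcc8 (log2 −0.68). Median-centring ended both calls (−0.53 and −0.29), as did DESeq2 (−0.57 and −0.33), and edgeR ended that of Abcc8 (−0.37).

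Cacna1d took the other course. Its libraries at 8 h of FSK in WT had 36.2 and 34.2 TPM, above both CON libraries and above every other group of the series. The log2 difference from CON was 0.50 (95% interval 0.35 to 0.65, limma adjusted p 5.05e-07), under the 1.5-fold limit in TPM, and it was called higher after median-centring (0.89), in edgeR (0.84) and in DESeq2 (0.87). It ranged from 0.45 to 0.89 over the alternatives. At 16 h of FSK, Cacna1d was at 18.4 and 18.9 TPM, below CON (log2 −0.38, 95% interval −0.53 to −0.23), a value that was −0.0035 in DESeq2 with ERCC size factors.

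The other 6 genes were also called lower at 16 h of FSK in WT, beside 24.1% of all genes. Cacna1a had 8.75 and 9.13 TPM (log2 −2.27) and Cacna1c 4.12 and 4.46 TPM, its lowest WT level (log2 −1.63). Cacnb2 had 4.59 and 5.08 TPM (log2 −1.33) and Kcnk3 6.33 and 7.09 TPM (log2 −1.25). Abcc8 was at 124.8 and 124.7 TPM (log2 −0.92), and Kcnj11 at 122.5 and 119.4 TPM (log2 −0.90). The limma adjusted p of these 6 genes was at most 3.07e-13. ERCC scaling ended the KATP calls at 16 h (−0.55 for Kcnj11 and −0.58 for Abcc8), as did DESeq2 with ERCC size factors (−0.51 and −0.54).

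**Figure D3:**
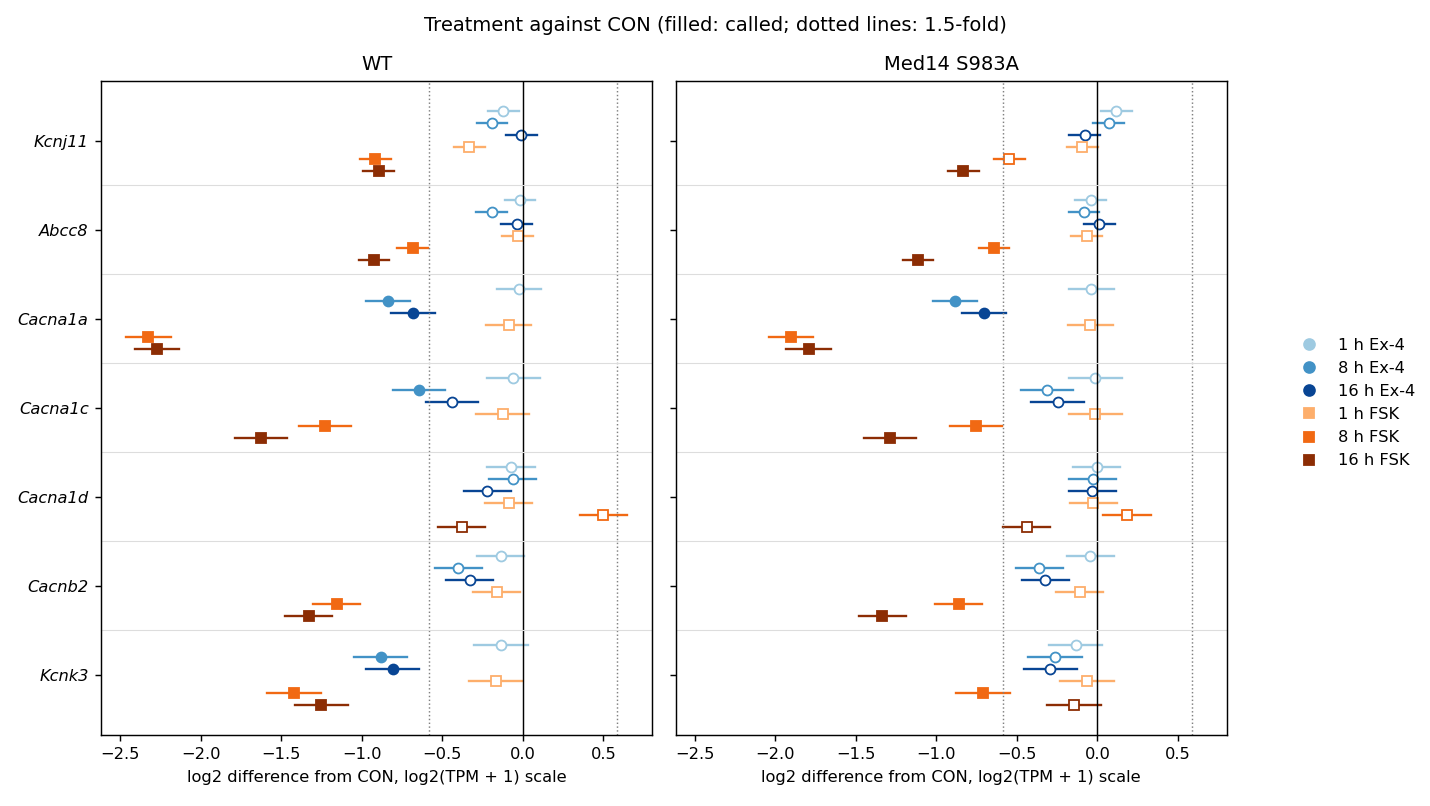
Log2 difference from CON of the same genotype (horizontal axis, log2(TPM + 1) scale) with its 95% interval, for Ex-4 (blue circles) and FSK (orange squares) at 1, 8 and 16 h, in WT (left) and Med14 S983A (right). Filled symbols are called and dotted lines mark 1.5-fold. Cacna1a reaches −2.32 in WT and −1.90 in Med14 S983A at 8 h of FSK, and Cacna1d in WT at that time, at 0.50, is the value farthest to the right.

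In Med14 S983A at 8 h of FSK, 5 of 7 genes were called lower, beside 34.5% of all genes. Cacna1a was at 2.94 and 2.502 TPM (log2 −1.90), Cacnb2 at 7.80 and 6.89 TPM (log2 −0.86), Cacna1c at 5.32 and 4.88 TPM (log2 −0.75), Kcnk3 at 8.11 and 8.19 TPM (log2 −0.71) and Abcc8 at 78.9 and 73.0 TPM (log2 −0.64). Kcnj11, at 82.7 and 78.8 TPM, had a log2 difference of −0.55, just short of 1.5-fold. It was called with ERCC scaling (−0.60), in DESeq2 with ERCC size factors (−0.64) and without Med14 S983A CON replicate 1 (−0.59). Over the alternatives with all libraries the Kcnj11 value ranged from −0.64 to −0.21. After median-centring only the Cacna1a call was left (−1.57), with Cacnb2 at −0.53, Cacna1c at −0.42, Kcnk3 at −0.37 and Abcc8 at −0.31. Cacna1d had 26.2 and 23.5 TPM, above its CON libraries, with a log2 difference of 0.18 (95% interval 0.04 to 0.33).

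At 16 h of FSK in Med14 S983A, Kcnj11, Abcc8, Cacna1a, Cacna1c and Cacnb2 were called lower, 5 of 7 beside 21.1% of all genes. Kcnj11 had 68.8 and 63.5 TPM (log2 −0.83) and Abcc8 53.3 and 55.6 TPM (log2 −1.11), the lowest levels of both genes in the series. Cacna1a had 3.12 and 2.91 TPM (log2 −1.79), Cacna1c 3.08 and 3.36 TPM (log2 −1.29) and Cacnb2 4.96 and 5.03 TPM (log2 −1.34). ERCC scaling ended the Kcnj11 call (−0.56). Kcnk3 had 12.9 and 12.2 TPM, overlapping the CON libraries, with a log2 difference of −0.14 (95% interval −0.31 to 0.02).

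The balance between the calcium channel pore genes shifted with these values. The 10 Cacna1 genes together made up 153.9 ± 6.54 TPM (SD, n = 2) in WT CON, against 87.8 ± 3.91 TPM (SD, n = 2) after FSK for 8 h. In WT, Cacna1a held 30.6% ± 0.571 (SD, n = 2) of the CON sum, against 9.77% ± 0.167 (SD, n = 2) after FSK. Cacna1d went from 16.0% ± 0.310 (SD, n = 2) to 40.1% ± 0.140 (SD, n = 2). In Med14 S983A, Cacna1a held 14.2% ± 0.0882 (SD, n = 2) of the CON sum, against 4.38% ± 0.186 (SD, n = 2) after FSK, and Cacna1d went from 23.9% ± 0.365 (SD, n = 2) to 40.0% ± 0.186 (SD, n = 2). By 16 h of FSK the share of Cacna1d was 24.6% in WT and 30.7% in Med14 S983A, lower than at 8 h in each library. The ratio of Cacna1a to Cacna1d was 1.91 in WT CON, 1.10 at 8 h of Ex-4, 0.244 at 8 h of FSK and 0.479 at 16 h of FSK. In Med14 S983A it was 0.594 in CON, 0.308 at 8 h of Ex-4 and 0.109 at 8 h of FSK, so that Cacna1d was the more abundant of the pair in every Med14 S983A group. These shares are sums of TPM over transcripts and do not measure channels or currents.

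**Figure D4:**
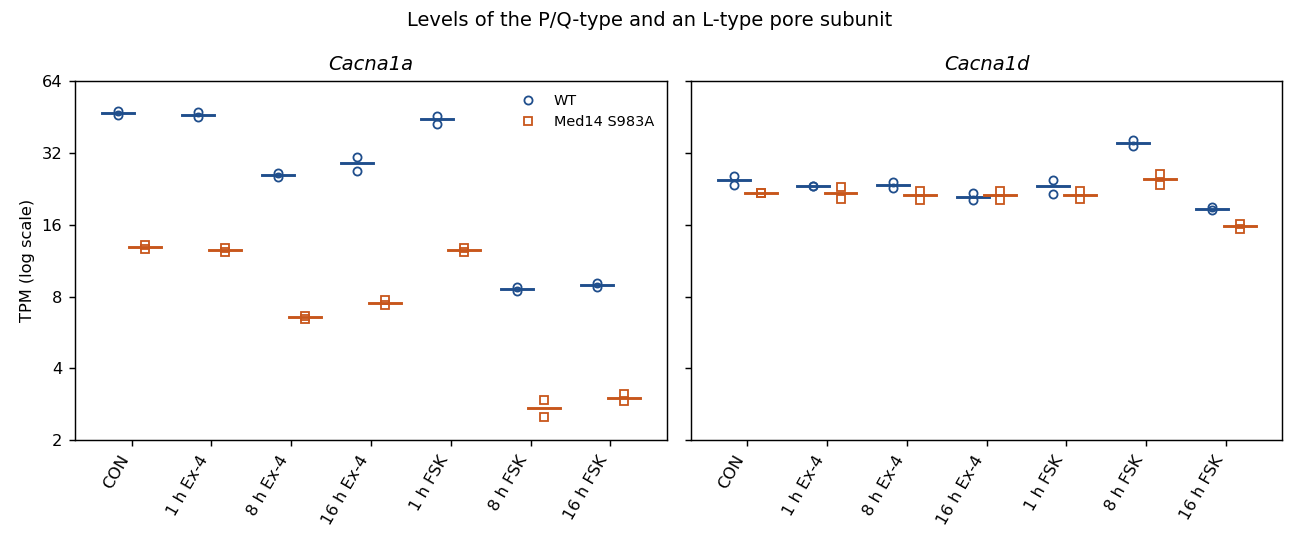
TPM of Cacna1a (left) and Cacna1d (right) on a shared log scale in the 14 groups, WT as blue circles and Med14 S983A as orange squares, 1 point per library and a line at the mean of 2. Cacna1a spans 47.8 to 2.502 TPM, and Cacna1d stays between 15.4 and 36.2 TPM with its highest points in WT at 8 h of FSK.

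The next comparison asked whether the response differed between the genotypes, tested as the response in Med14 S983A minus that in WT. Kcnk3 was the 1 channel gene called, in 3 of the 6 such comparisons. At 8 h of Ex-4 its difference was 0.62 on the log2 scale (SE 0.11, limma adjusted p 0.00036), where 1.98% of all genes were called higher. At 8 h of FSK it was 0.71 (SE 0.11, limma adjusted p 1.19e-05), beside 7.65% of all genes. At 16 h of FSK it was 1.11 (SE 0.11, limma adjusted p 1.1e-08), beside 10.6%. Kcnk3 went in Med14 S983A from 12.9 and 15.2 TPM to 12.9 and 12.2 TPM at 16 h of FSK, where WT went from 17.8 and 16.9 TPM to 6.33 and 7.09 TPM. In TPM the Kcnk3 libraries of Med14 S983A lay above those of WT after 8 and 16 h of either agent. In CON they lay below, by −0.29 (limma adjusted p 0.00276), short of 1.5-fold and so not called. That difference was −0.095 in DESeq2 with ERCC size factors. Both FSK differences were called under every alternative, ranging from 0.66 to 0.78 at 8 h and from 1.01 to 1.20 at 16 h, and without each library in turn (0.60 to 0.82 and 1.00 to 1.22). The 8 h Ex-4 call was lost with median-centring (0.53), ERCC scaling (0.55), DESeq2 with ERCC size factors (0.53), without Med14 S983A CON replicate 1 (0.51) and without Med14 S983A 8 h Ex-4 replicate 1 (0.54).

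No other channel gene reached the limit. None was called for 1 h of Ex-4 (0.672% of all genes called in either direction), 16 h of Ex-4 (7.24%) or 1 h of FSK (1.64%). Limma, edgeR and DESeq2 each gave 0 of 7 there. In each, 1 gene had an unadjusted p under 0.05, Kcnj11 at 1 h of Ex-4 and of FSK and Kcnk3 at 16 h of Ex-4. Of all 10275 genes, 159, 4317 and 600 had the adjusted p under 0.05 at 1 h of Ex-4, 16 h of Ex-4 and 1 h of FSK. Kcnk3 had 0.52 (SE 0.11, limma adjusted p 0.000794) at 16 h of Ex-4, and this was called without WT 16 h Ex-4 replicate 2 (0.61), without Med14 S983A CON replicate 2 (0.63) and without Med14 S983A 16 h Ex-4 replicate 1 (0.59). With all libraries it was smaller under other scalings, 0.39 after median-centring, 0.17 with ERCC scaling and 0.11 in DESeq2 with ERCC size factors. For Cacna1a the differences with FSK were 0.42 at 8 h and 0.48 at 16 h. At the low Cacna1a levels of Med14 S983A these values depended on the pseudocount, and they were 0.23 and 0.32 with 0.1 TPM in place of 1 TPM and 0.14 and 0.20 in edgeR. Cacna1a differed by −0.05 and −0.02 with Ex-4 at 8 and 16 h (95% intervals −0.24 to 0.15 and −0.22 to 0.17) in TPM, values that depended on the scaling and reached −0.25 and −0.52 in DESeq2 with ERCC size factors, uncalled. Cacna1d had −0.32 at 8 h of FSK (95% interval −0.52 to −0.11). At that time Cacna1c had 0.48, Kcnj11 0.37 and Cacnb2 0.29. Smaller values were those of Cacna1c (0.33) and Kcnj11 (0.26) at 8 h of Ex-4, and of Kcnj11 (0.24) at 1 h of FSK. At 16 h of FSK, Cacna1c had 0.34 and Abcc8 −0.19. In TPM with all libraries, each of these differences was short of 1.5-fold. Except for Cacna1a with Ex-4 (limma adjusted p 0.78 at 8 h and 0.87 at 16 h), each had a limma adjusted p under 0.05. At 8 h of FSK, 5508 of all 10275 genes were past that p.

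**Figure D5:**
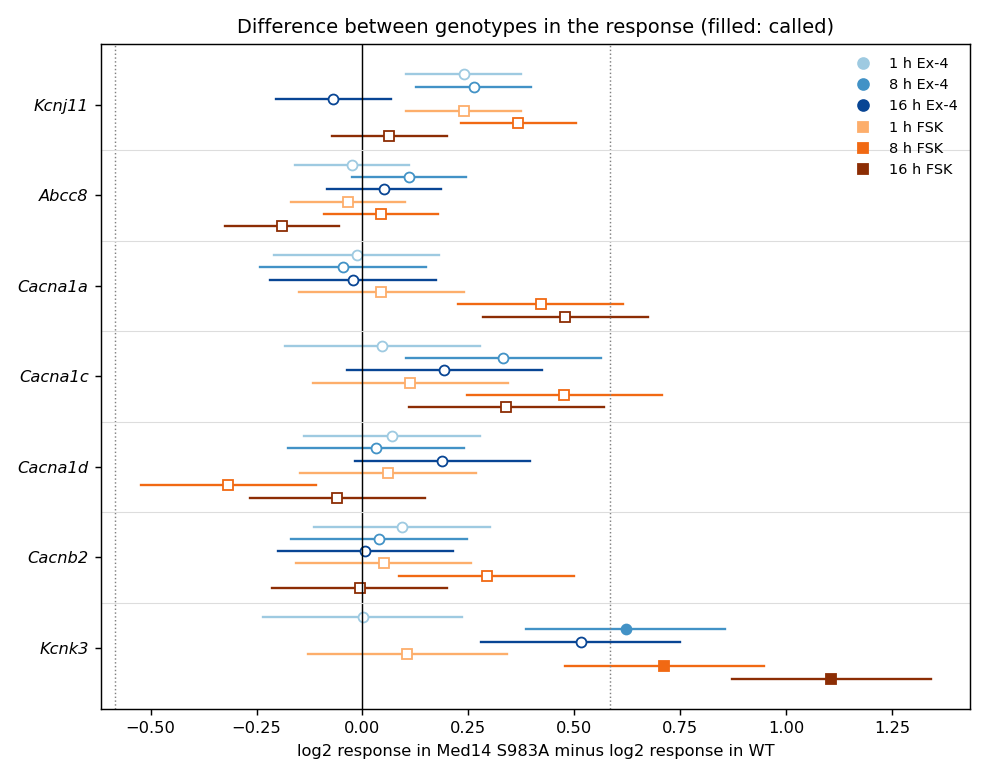
Log2 response in Med14 S983A minus log2 response in WT (horizontal axis) with its 95% interval for each channel gene, for Ex-4 (blue circles) and FSK (orange squares) at 1, 8 and 16 h. Filled symbols are called and dotted lines mark 1.5-fold. The 3 filled symbols belong to Kcnk3, at 0.62, 0.71 and 1.11.

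Ex-4 and FSK were then compared at the same time, at the single dose of each. At 1 h no channel gene was called in WT (1.79% of all genes in either direction) or in Med14 S983A (3.03%). Limma, edgeR and DESeq2 each gave 0 of 7, with Kcnj11 alone at an unadjusted p under 0.05 (log2 0.21 in both genotypes). Kcnj11 also passed the adjusted p (limma, 0.00253 in WT and 0.00124 in Med14 S983A) but was short of 1.5-fold. Of all 10275 genes, 1368 in WT and 2886 in Med14 S983A had the adjusted p under 0.05. At 8 h in WT, Kcnj11, Cacna1a, Cacna1c and Cacnb2 were higher with Ex-4 than with FSK, 4 of 7 beside 23.3% of all genes. Cacna1a led with a log2 difference of 1.49 (SE 0.07, limma adjusted p 4.78e-16). The Cacna1c call (0.59) was lost in 3 scalings or tools, median-centring (0.32), edgeR (0.43) and DESeq2 (0.42), and also without WT 8 h Ex-4 replicate 1 (0.50) and without WT 8 h FSK replicate 2 (0.55). Cacna1d, at −0.56, was called lower with Ex-4 after median-centring (−0.83), in edgeR (−0.82) and DESeq2 (−0.83), and without either of these libraries (−0.60 each). Abcc8 (0.49) was called with ERCC scaling (0.66) and in DESeq2 with ERCC size factors (0.63), and Kcnk3 (0.54) in both of these (0.69 and 0.75) and with a pseudocount of 0.1 TPM (0.61). The Kcnj11 call (0.72) was lost with median-centring (0.46), edgeR (0.49) and DESeq2 (0.48), and that of Cacnb2 (0.75) after median-centring (0.49).

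At 16 h in WT, 5 of 7 were higher with Ex-4, beside 11.4% of all genes. These were Cacna1a (log2 1.59), Cacna1c (1.18), Cacnb2 (1.00), Kcnj11 (0.89) and Abcc8 (0.89), each called under every alternative. Kcnk3 had a log2 difference of 0.44 (95% interval 0.28 to 0.61) and Cacna1d 0.16 (0.01 to 0.31). In Med14 S983A at 8 h, Cacna1a (1.02) and Kcnj11 (0.62) were higher with Ex-4, 2 of 7 beside 29.8% of all genes, and the Kcnj11 call was lost with median-centring (0.31), edgeR (0.37), DESeq2 (0.34) and without Med14 S983A 8 h FSK replicate 2 (0.58). Abcc8 (0.56) was called without Med14 S983A 8 h Ex-4 replicate 2 (0.59) and without Med14 S983A 8 h FSK replicate 1 (0.61). At 16 h the same 5 genes as in WT were called, beside 10.6% of all genes, with Abcc8 at 1.12, Cacna1a at 1.09, Cacna1c at 1.04, Cacnb2 at 1.01 and Kcnj11 at 0.75. The Kcnj11 call was lost with ERCC scaling (0.39) and DESeq2 with ERCC size factors (0.41).

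Levels in the order of groups show where neighbours cannot be separated. For Kcnj11, WT CON and WT 16 h Ex-4 headed the order and overlapped, while Med14 S983A at 16 h of FSK lay under every other library. For Abcc8 the first 4 groups, WT CON, 1 h of Ex-4, 1 h of FSK and 16 h of Ex-4, overlapped from each to the next. Cacna1a fell into steps, with CON and both 1 h groups of WT overlapping at the top, and 16 h above 8 h of Ex-4 with no overlap in either genotype. For Cacna1d, every neighbour from the 2nd to the 12th group overlapped, and WT 8 h FSK stood above them while the 16 h FSK groups stood below. Cacnb2 differed from the rest in that Med14 S983A CON and Med14 S983A 1 h Ex-4 headed its order, overlapping with WT CON.

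Over the 14 group means of log2(TPM + 1), Pearson's r between Kcnj11 and Abcc8 was 0.97, that of Cacna1a with Kcnj11 and with Abcc8 0.94 each, and that of Cacna1a with Cacna1c 0.91. Cacna1d had r between −0.31 (with Kcnk3) and 0.41 (with Abcc8). The groups share genotype and treatment, so these values are descriptions only. Among the 10275 genes, those most like each channel gene by the same measure were Gprc5c (r 0.97) and Abcc8 for Kcnj11, Celf3 (0.99) and Ddx41 (0.99) for Abcc8, Ceacam1 (0.997) and Afp (0.99) for Cacna1a, St8sia2 (0.98) and Phf2 (0.98) for Cacna1c, Mast3 (0.87) and Taok2 (0.86) for Cacna1d, Ankrd44 (0.98) and Slc44a1 (0.98) for Cacnb2, and Hnrnpu (0.95) and Rhobtb3 (0.95) for Kcnk3.

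Other genes of ion conductance and calcium handling were read from lists of 137 genes without the 7, of which 133 were in the table and 74 were tested. At 16 h of Ex-4 in WT, 4 of the 74 were higher and 2 lower, where 3.53% of all genes were called higher and 8.28% lower. Among the higher genes were the potassium channel genes Kcnh1 (log2 1.09) and Kcnn1 (0.74), and Gem (0.64), an RGK GTPase that binds calcium channel beta subunits and inhibits the channel. Kcnb2 (−0.68) and Kcnn3 (−0.60) were lower. At 16 h of FSK in WT, 15 of 74 were higher and 28 lower, where 10.3% of all genes were called higher and 24.1% lower, with a median of −0.31 beside −0.20 over all genes. Among the genes given by the same naming rule were Gem (log2 1.96), Kcnh1 (1.69), Kcnd3 (1.54), Kcnb2 (−2.22) and the calcium channel gamma subunit gene Cacng6 (−1.99).

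Of 12 further voltage-gated calcium channel genes tested, 7 were lower at 8 h of FSK in WT, where 34.8% of all genes were. At 16 h, where 24.1% of all genes were lower and 10.3% higher, 7 were lower and 1, the N-type pore gene Cacna1b (log2 0.87, chosen after its value was seen), was higher. Their median was −0.92 at 8 h and −0.66 at 16 h, beside −0.34 and −0.20 over all genes. In Med14 S983A CON against WT CON, where 11.1% of all genes were lower and 8.29% higher, 6 of the 12 were lower and 2 higher, Cacna1g (0.81) and Cacna2d3 (1.13), both chosen after their values were seen. Cacng7 went from 68.2 ± 5.36 TPM (SD, n = 2) in WT to 0.110 ± 0.0311 TPM (SD, n = 2), and Cacng6 from 12.7 ± 1.18 TPM (SD, n = 2) to 0.0235 ± 0.0332 TPM (SD, n = 2), levels near 0 at which a fold depends on the pseudocount. Over all lists, 7 of 74 genes were higher and 23 lower between the genotypes, beside the same shares of all genes. The naming rule also gave Rem2, an RGK GTPase with a lower level in the knock-in cells (log2 −2.76). Rem2 went from 35.1 ± 2.22 TPM (SD, n = 2) in WT to 4.32 ± 0.301 TPM (SD, n = 2). The same rule gave Kcnq1 (log2 2.20), Atp2a3, an endoplasmic reticulum calcium pump (−1.94), and the K2P gene Kcnk2 (−1.79).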

How the data were processed

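Total RNA of 28 INS-1 libraries (14 groups of 2) was spiked with ERCC controls and sequenced after directional library preparation. The authors aligned reads to rn6 with STAR 2.5.3a and deposited TPM values per RefSeq transcript from HOMER 4.11.1, 19223 rows. The table of ERCC spike-in counts was deposited unnormalized. Per the submitters' notes DESeq2 1.24.0 was used for their own comparisons. The study's methods took its size factors from the ERCC spike-ins. Of the alternatives here, DESeq2 with ERCC size factors is the nearest to that. TPM is relative to each library's total, so abundant transcripts bear on every other value.

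The transcript with the highest mean TPM was kept per symbol (17455 symbols). Log2(TPM + 1) of the 10275 genes averaging 1 TPM or more was fitted with limma 3.58.1 (R 4.3.3), 14 group means over 28 libraries, two-sided, with Benjamini-Hochberg adjustment within each comparison. A call needed an adjusted p under 0.05 and over 1.5-fold. Fold changes on this scale understate the change of low genes. Fragments were recovered from TPM (100% of 137444 values whole within 0.05 reads, 23.1% by chance) and tested with edgeR 4.0.16 and DESeq2 1.42.0 as alternatives. The statistics were tested on simulated data in which a small part of the genes changed, in both directions and in a single group. Such data hold no shift over all genes, so they do not bear on the choice of scaling. All 7 members, the genes with the 6 largest called changes per comparison in the channel lists, and the 2 most alike genes per member are named. Some genes that the rule or the lists gave are not reported here. Members and lists were chosen with earlier results of these data known. Replicates correlated at r of 0.998 or more and differed beyond counting noise. Each level rests on 2 libraries, and the fragment numbers cover counting error only.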

Additional observations from a re-analysis of the deposited data

Results flagged for a closer look

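Kcnk3, the TASK-1 gene, responded differently in the 2 genotypes by the interaction term, which tests the difference of the responses itself (limma, two-sided, adjusted over 10275 genes). The response in Med14 S983A minus that in WT was 0.62 on the log2 scale at 8 h of Ex-4, 0.71 at 8 h of FSK and 1.11 at 16 h of FSK, with adjusted p of 0.00036, 1.19e-05 and 1.1e-08. The Med14 S983A level after treatment lay above the WT level in both libraries in all 3 cases. In CON the difference was −0.29 and was not called. The 8 h Ex-4 call was lost with median-centring (0.53), ERCC scaling (0.55) and DESeq2 with ERCC size factors (0.53). It was also lost without Med14 S983A CON replicate 1 and without Med14 S983A 8 h Ex-4 replicate 1. Kcnk3 had 336 to 995 fragments per library, and 336 was the lowest count of the 7 genes in any library.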

How the results depend on the processing

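Of 175 values (7 genes in 25 comparisons), 52 were called. A pseudocount of 0.1 TPM, no filter, a filter at 5 TPM, a fit on only the libraries compared and the replicate block each kept all 52. The block gained 0 calls, and the replicate numbers do not pair the libraries (17 of 91 pairs of groups with r over 0.1, median 0.0035). Median-centring kept 38 calls, ERCC scaling 43, edgeR 45, DESeq2 43 and DESeq2 with ERCC size factors 44. No called value changed sign, 33 calls held in every alternative with the same call rule, and 48 held without each library. TPM summed over transcripts was not run, because each gene had 1 transcript in the table. The cause of the changes below was not tested.

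Without a fold minimum the number of the 7 genes called was 6 for WT 8 h Ex-4, where 6082 of all 10275 genes were called. For WT 16 h Ex-4 it was 5 (7057 of all genes) and for WT 1 h FSK 1 (4538). For Med14 S983A 8 and 16 h Ex-4 it was 4 each (5197 and 6359 of all genes). For the difference of responses it was 3 at 8 h and 1 at 16 h of Ex-4 (1910 and 4317 of all genes). With FSK it was 1, 6 and 4 at 1, 8 and 16 h (600, 5508 and 5954 of all genes). For Ex-4 against FSK it was 1 at 1 h and 7 at 8 h in both genotypes. Over all genes these comparisons had 1368 and 7907 in WT, and 2886 and 8289 in Med14 S983A. For WT 16 h Ex-4 the number was 1 with median-centring, edgeR and DESeq2, and 0 with ERCC scaling and DESeq2 with ERCC size factors. For Med14 S983A 8 h FSK it was 1 with median-centring, 3 with edgeR and 2 with DESeq2. For the 8 h Ex-4 difference of responses it was 0 with median-centring and both ERCC scalings. For Ex-4 against FSK at 8 h it was 2 in WT with median-centring, and in Med14 S983A 1 with median-centring, edgeR and DESeq2, 4 with ERCC scaling and 6 with DESeq2 and ERCC size factors. Leaving out 1 library gave 0 to 1 for the 8 h and the 16 h Ex-4 difference and 1 to 3 for Med14 S983A 8 h Ex-4 against FSK. The numbers over all genes under the other scalings and tools are given below only in part. The counts under these settings show only how the calls of the 7 genes moved.

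Values that were not called but had an adjusted p under 0.05 in TPM or in the alternative turned sign in the cases that follow. Another 152 sign changes, and 72 on leaving out a library, were of values past that p in neither. At WT 16 h Ex-4, Abcc8 was 0.15 with median-centring, 0.11 in edgeR, 0.14 in DESeq2 and 0.29 in DESeq2 with ERCC size factors. Kcnj11 was 0.18, 0.14, 0.17 and 0.32 in the same order and 0.27 with ERCC scaling, and Cacna1d was 0.049 with ERCC scaling and 0.10 in DESeq2 with ERCC size factors. At WT 1 h FSK, Abcc8 was 0.10 with median-centring and 0.11 in DESeq2, and at Med14 S983A 1 h FSK Cacna1d was 0.13 in DESeq2. With DESeq2 and ERCC size factors the genotype difference of Cacna1d was 0.027, and the 16 h Ex-4 difference of responses was −0.39 for Abcc8 and −0.43 for Cacnb2. That of Kcnj11 at 1 h of FSK was −0.022 with ERCC scaling and −0.036 in DESeq2 with ERCC size factors.

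Over all genes the scaling moved the balance of higher and lower calls. For WT 16 h Ex-4 there were 363 higher and 851 lower in TPM, 665 and 407 with median-centring, and 842 and 328 with ERCC scaling. For WT 8 h FSK there were 901 and 3579, then 1930 and 1848 with median-centring. For WT 16 h FSK there were 1062 and 2478, then 1723 and 1481, and 2051 and 1293 with ERCC scaling. For the genotypes in CON there were 852 and 1145, then 1069 and 932, and 1146 and 876.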
